A study of Homo sapiens with 4 samples.

Results

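Exon inclusion and reads were described for the genes that start protein synthesis and the genes that charge transfer RNAs, after siRNA against the spliceosome gene SNRPB2. Of their 218 tested exons, 28 were called different in inclusion between siSNRPB2 and siCtrl, 12.8% against 14.7% of all tested exons. The members were chosen by gene name and exon position: skipped-exon events whose middle exon shares a boundary with an exon of a protein-coding gene named EIF followed by a digit, or named as an aminoacyl-tRNA synthetase, in GENCODE release 29. The rule found 306 of the 39919 events listed in both files. They describe 269 skipped exons in 69 genes, of which 39 encode initiation factors or their partners and 30 encode synthetases. Another 23 genes that match the names, among them EIF2S1, EIF3A, EIF4EBP1, EIF5B and VARS, had no event in both files and are not analysed here.

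The siSNRPB2 group was MDA-LM2 cells transfected with siRNA against SNRPB2, and the siCtrl group was MDA-LM2 cells given the control transfection. MDA-LM2 is an established line, a lung-metastatic derivative of the breast cancer line MDA-MB-231. Per the labels, 2 independent siRNAs were used, knockdown by qPCR was over 95%, and total RNA was taken 48 h after transfection and made into stranded libraries, 2 per group. The analysed files give 1 value per event and group, so the spread between libraries could not be computed and every difference below stands without replication. The siSNRPB2 file listed 42670 events with 93580246 event reads and the siCtrl file 42159 events with 100579230 event reads. No event lay in SNRPB2 itself, so its level could not be checked in these files. Of 8 mesenchymal marker genes, 5 were measured and summed to 3065 RPM (reads scaled to 1000000 per file) in siSNRPB2 and 3484 in siCtrl. Most of that was CD44, with 2383 RPM in siSNRPB2 and 2725 in siCtrl. Of 7 epithelial markers, 3 were measured and summed to 718 RPM in siSNRPB2 and 773 in siCtrl, nearly all of it KRT8. The 2 measured markers of 5 for blood and endothelial cells summed to 3.86 RPM in siSNRPB2 and 4.12 in siCtrl.

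As background, SNRPB2 encodes a protein of the U2 snRNP, the particle that pairs with the branch point upstream of an exon. Translation begins when eIF2 brings the initiator transfer RNA to the small ribosomal subunit, the eIF4 factors load the capped message, and eIF3 holds the assembly together. eIF2B recharges eIF2 with GTP, and kinases that phosphorylate eIF2 block that step under stress. The synthetases attach each amino acid to its transfer RNA, several cytosolic ones sit together in a multisynthetase complex, and a separate nuclear-encoded set works in mitochondria.

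The exons that carry the results are shown first. All were read from GENCODE release 29 transcript sequences on hg38, 5′ to 3′ in the direction of the gene. The first set holds 4 coding exons that had reads joining across them and whose reads differed between the files, with the last 3 bases before the 5′ splice site in capitals. They lie at chr5:140696103-140696201 on the plus strand (HARS2), chr2:232557884-232558018 plus (EIF4E2), chr1:21001199-21001312 minus (EIF4G3) and chr1:44857704-44857807 minus (EIF2B3).
HARS2 99-nt exon: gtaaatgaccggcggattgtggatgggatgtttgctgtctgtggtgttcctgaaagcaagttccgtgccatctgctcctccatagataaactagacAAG
EIF4E2 135-nt exon: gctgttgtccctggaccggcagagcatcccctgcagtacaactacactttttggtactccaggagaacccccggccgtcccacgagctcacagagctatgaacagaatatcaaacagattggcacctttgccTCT
EIF4G3 114-nt exon: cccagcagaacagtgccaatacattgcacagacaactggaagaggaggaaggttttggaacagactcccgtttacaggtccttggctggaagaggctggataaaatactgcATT
EIF2B3 104-nt exon: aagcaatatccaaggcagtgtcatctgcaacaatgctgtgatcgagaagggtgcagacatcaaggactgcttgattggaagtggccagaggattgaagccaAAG

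The second set holds exons that bring a stop codon into the reading frame of the upstream coding exon, shown only up to that stop, which is in capitals. They begin the 173-nt HARS2 exon (chr5:140696029-140696088, plus), which extends the 99-nt exon upstream, the 118-nt CARS2 exon (chr13:110644150-110644182, minus) and the 111-nt EIF4A2 exon (chr3:186788310-186788319, plus).
HARS2 173-nt exon, start to stop: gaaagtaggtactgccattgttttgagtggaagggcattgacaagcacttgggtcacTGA
CARS2 118-nt exon, start to stop: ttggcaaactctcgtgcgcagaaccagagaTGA
EIF4A2 111-nt exon, start to stop: gagtcgaTAG

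The third set shows how close some competing splice sites lie. In the 80-nt coding exon of EIF4A1 (chr17:7578165-7578244, plus) the capitals are the 18-nt version, which starts after the letters AG, the usual end of an intron. In the 67-nt exon of QARS (chr3:49098192-49098258, minus) the capitals are the bases that the 60-nt version lacks, and they too end in AG. In the 148-nt exon of QARS (chr3:49104324-49104471, minus) the capitals are the bases that the 99-nt version lacks, and they begin with GT, the usual first letters of an intron.
EIF4A1 80-nt exon: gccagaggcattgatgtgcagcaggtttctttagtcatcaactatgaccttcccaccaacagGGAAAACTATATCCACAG
QARS 67-nt exon: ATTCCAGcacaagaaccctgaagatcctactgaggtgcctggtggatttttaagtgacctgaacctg
QARS 148-nt exon: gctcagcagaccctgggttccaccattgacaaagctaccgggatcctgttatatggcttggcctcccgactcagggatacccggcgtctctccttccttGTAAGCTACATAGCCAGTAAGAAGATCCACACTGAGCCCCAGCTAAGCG

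Inclusion is given as ψ, as the authors estimated it with MISO. Within an event, ψ is the fraction with the exon among the isoform that keeps it and the isoform that skips it. Overlapping versions of an exon belong to separate events, so their ψ values are not shares of a common total. Each value came with a lower and an upper bound whose level is not given in the sources used here. Reads that fit only the isoform with the exon are called inclusion reads here, reads that fit only the isoform without it skipping reads, and both kinds informative. An exon was tested where each file held at least 20 informative reads for it, and called where the authors' deposited table gave a Bayes factor of at least 10 and ψ differed by at least 0.1. Of the member exons, 218 were tested, 115 in 37 initiation genes and 103 in 28 synthetase genes. ψ was 0.95 or higher in both files for 74 of them and 0.05 or lower in both for 47. The median absolute ψ difference was 0.01, against 0.03 over all 18682 tested exons. The median number of informative reads per tested member exon was 289 in siSNRPB2 and 304.5 in siCtrl, against 137 and 158 over all tested exons.

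**Figure D1:**
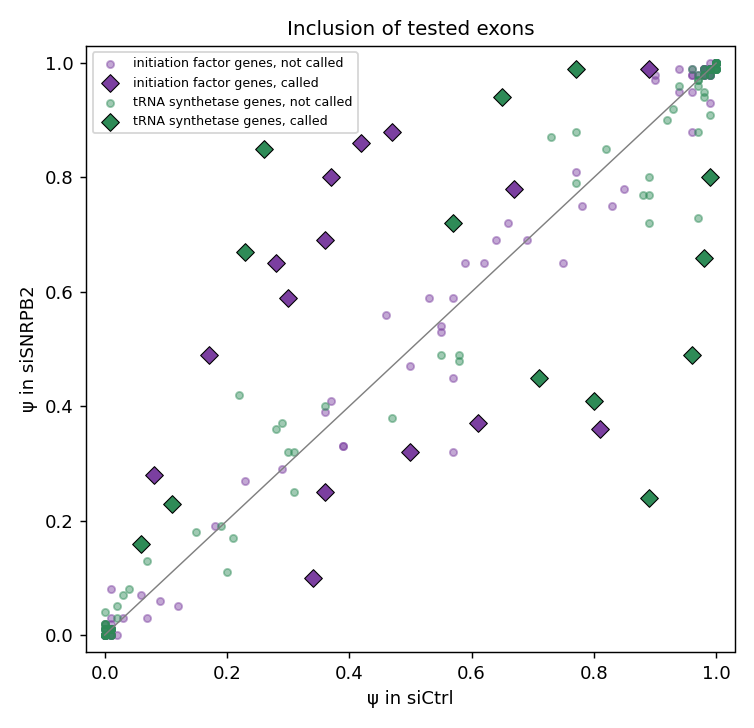
ψ of the 218 tested exons in siSNRPB2 (vertical axis) against siCtrl (horizontal axis), as fractions, with called exons as diamonds and the grey line marking equal values. Most points sit in the 2 corners near ψ of 0 and 1, and the 28 called exons lie off the line, 17 above it and 11 below.

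Against siCtrl, 11 member exons had lower inclusion in siSNRPB2 and 17 had higher inclusion, where over all tested exons 7.61% were called lower and 7.13% higher. The 28 called exons made up 12.8% of those tested (exact 95% interval 8.71 to 18.0, counting error only), against 14.7% of all tested exons, so the members' share was near the background. The initiation factor genes had 5 lower and 10 higher calls among 115 tested exons. The synthetase genes had 6 lower and 7 higher calls among 103. The calls fell in 16 genes, 8 of each class, and 5 genes held calls in both directions. Overlapping versions of an exon count separately here: the 28 exons form 23 sets that do not overlap one another, 10 lower and 13 higher. Neither file held a skipping read for 16 of the 28, so their ψ rested on the balance of inclusion reads and reads that fit both isoforms. Such exons made up 126 of the 218 tested member exons, and 1088 of the 2754 calls over all exons.

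**Figure D2:**
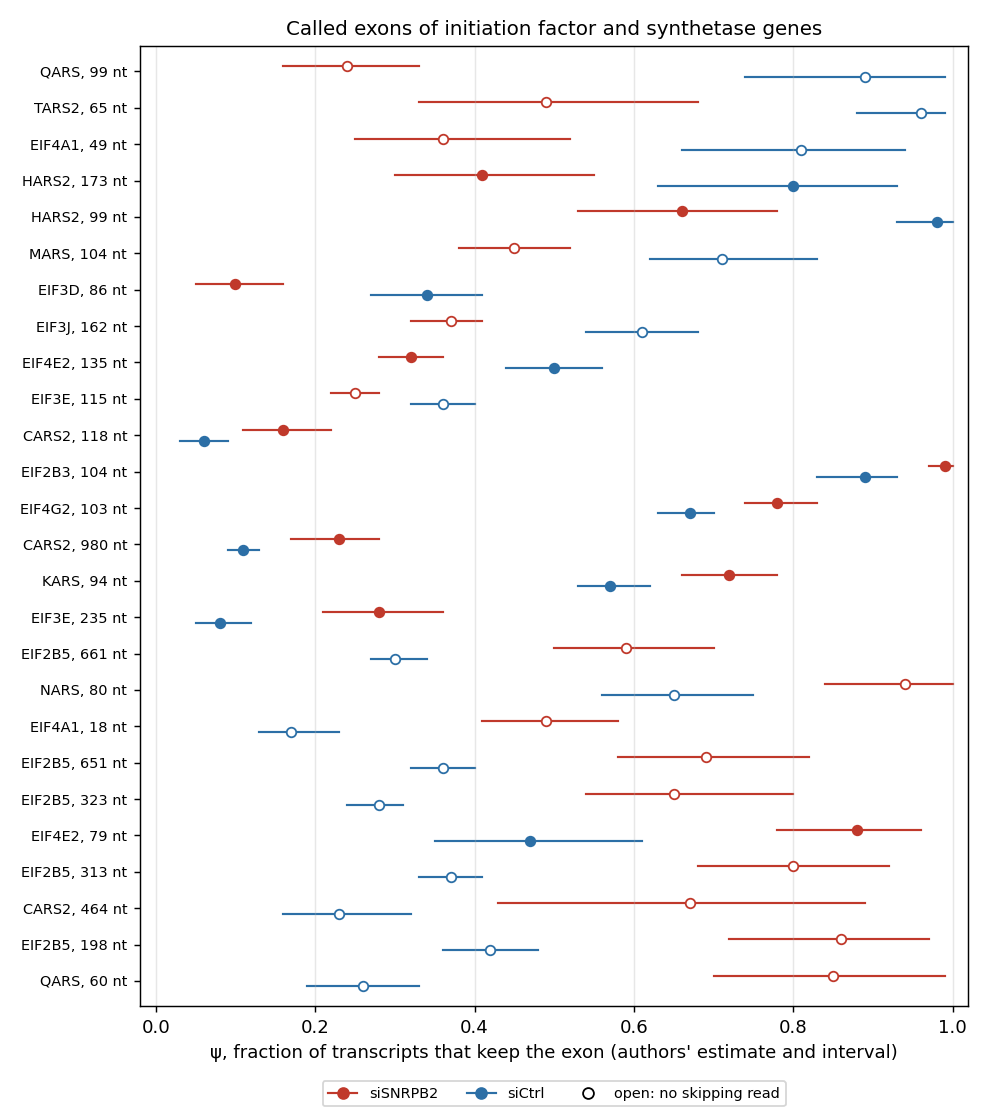
ψ with the authors' interval for 26 of the 28 called exons, siSNRPB2 in red above siCtrl in blue, ordered from the largest decrease at the top to the largest increase at the bottom. Open circles mark the 15 of these with no skipping read in either file. The QARS 99-nt exon stands at 0.24 in siSNRPB2 and 0.89 in siCtrl, and the QARS 60-nt exon at 0.85 in siSNRPB2 and 0.26 in siCtrl.

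The genes grouped here under start codon choice and the ternary complex had no called exon, where 14.7% of all tested exons were called. The exact 95% interval of their share, 0% to 19.5%, includes that value. The 17 tested exons lay in 7 genes, most of them in EIF2A, EIF1AD and EIF2D rather than in EIF1, EIF1AX, EIF2S2 and EIF5. Of the 17, 9 had ψ of 0.95 or higher in both files. The 164-nt coding exon of EIF1, which guards start codon choice, had ψ of 1.00 in siSNRPB2 and 1.00 in siCtrl, on 4683 and 6182 inclusion reads. The 57-nt coding exon of EIF2S2, the beta subunit of eIF2, was of intermediate inclusion, 0.47 in siSNRPB2 and 0.50 in siCtrl, on 810 and 849 inclusion reads. EIF5, which makes eIF2 hydrolyse its GTP, had ψ of 0.39 in siSNRPB2 and 0.36 in siCtrl for an 82-nt coding exon, and 0.93 and 0.99 for a 209-nt untranslated exon. The largest difference on this list was in EIF2D, a factor that can deliver transfer RNA without GTP, whose 84-nt exon had ψ of 0.88 (interval 0.67 to 0.99) in siSNRPB2 and 0.96 (0.90 to 1.00) in siCtrl.

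The eIF2B exchange factor genes held 6 of the 17 higher calls on 13 tested exons in 3 genes, and no lower call. Over all tested exons 7.13% were called higher. Of the 6 calls, 5 are overlapping exons of EIF2B5, so the 6 are not separate changes. EIF2B5 encodes the catalytic epsilon subunit. Its 5 called exons overlap one another between chr3:184140080 and chr3:184140740 on the plus strand and share flanking reads, so they are versions of 1 change. The version with the most informative reads, 651 nt, had ψ of 0.69 (0.58 to 0.82) in siSNRPB2 and 0.36 (0.32 to 0.40) in siCtrl. It keeps the intron between a 78-nt and a 313-nt coding exon and brings in a stop codon. The 313-nt exon of the principal transcript had 0.80 in siSNRPB2 and 0.37 in siCtrl, while the 78-nt exon alone had 0.98 and 0.96. None of the 5 had a skipping read. Inclusion reads of the 651-nt version numbered 497 in siSNRPB2 and 675 in siCtrl, and reads fitting both isoforms numbered 203 and 516. Both kinds were fewer in siSNRPB2, the reads fitting both isoforms more so.

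EIF2B3 encodes the gamma subunit of the same factor. Its 104-nt coding exon, printed above, had ψ of 0.99 (0.97 to 1.00) in siSNRPB2 and 0.89 (0.83 to 0.93) in siCtrl. Skipping reads numbered 0 in siSNRPB2 and 18 in siCtrl, beside 210 and 195 inclusion reads. By Fisher's exact test, which compares the reads of the 2 files and not the conditions, the adjusted p was 7.92e-05, with a difference of 8.45 percentage points in the inclusion share. The 3 measured kinases of eIF2 showed no called exon on 5 tested, where 14.7% of all tested exons were called. EIF2AK1, the kinase known for sensing haem shortage, had ψ of 0.99 in siSNRPB2 and 0.99 in siCtrl for an 81-nt exon, EIF2AK2, the kinase activated by double-stranded RNA, had 1.00 and 0.99 for a 123-nt exon, and both exons of EIF2AK4, the amino acid sensor, stood at 0.99 in each file.

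The eIF3 genes had 3 lower calls and 1 higher call on 30 tested exons in 10 genes, 13.3% against 14.7% of all tested exons. EIF3D encodes the subunit that can itself bind a cap. Its 86-nt untranslated exon (chr22:36526820-36526905, minus) had ψ of 0.10 (0.05 to 0.16) in siSNRPB2 and 0.34 (0.27 to 0.41) in siCtrl. There were 10 inclusion and 35 skipping reads in siSNRPB2, against 75 and 67 in siCtrl. Inclusion reads were thus 22.2% of informative reads in siSNRPB2 and 52.8% in siCtrl (adjusted p = 2.77e-03, Fisher's exact test).

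EIF3E, a further eIF3 subunit, held a call in each direction. Its 235-nt exon, which introduces a stop codon, had ψ of 0.28 (0.21 to 0.36) in siSNRPB2 and 0.08 (0.05 to 0.12) in siCtrl. Its inclusion reads numbered 60 in siSNRPB2 and 21 in siCtrl, and its skipping reads 31 and 58 (adjusted p = 6.35e-06, Fisher's exact test). The 115-nt coding exon of EIF3E had ψ of 0.25 in siSNRPB2 and 0.36 in siCtrl, with no skipping read. EIF3J encodes a loosely bound eIF3 subunit, and its 162-nt coding exon (chr15:44557489-44557650, plus) had ψ of 0.37 (0.32 to 0.41) in siSNRPB2 and 0.61 (0.54 to 0.68) in siCtrl. That call rested on 345 and 476 inclusion reads and on 819 and 686 reads that fit both isoforms. Of the uncalled eIF3 exons, the 78-nt exon of EIF3K differed most, 0.45 in siSNRPB2 and 0.57 in siCtrl, for which the authors' deposited table gives a Bayes factor of 3.97.

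The eIF4 and cap-binding genes had 2 lower and 3 higher calls on 44 tested exons in 11 genes, 11.4% against 14.7% of all tested exons. EIF4E2 encodes a cap-binding relative of eIF4E that is known as a repressor of translation, and it was called in both directions. Its 135-nt exon had ψ of 0.32 (0.28 to 0.36) in siSNRPB2 and 0.50 (0.44 to 0.56) in siCtrl. Skipping reads numbered 53 in siSNRPB2 and 7 in siCtrl, beside 262 and 333 inclusion reads (adjusted p = 9.19e-10, Fisher's exact test). The 79-nt exon of EIF4E2 (chr2:232574263-232574341, plus), which brings in a stop codon at its base 44, had 0.88 (0.78 to 0.96) in siSNRPB2 and 0.47 (0.35 to 0.61) in siCtrl. Its reads were few, 71 inclusion and 3 skipping in siSNRPB2 against 39 and 8 in siCtrl, and the read shares did not pass Fisher's exact test (adjusted p = 0.111).

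EIF4A1 encodes the main RNA helicase of cap-dependent initiation and was the most deeply read member. It had 1 exon called in each direction, neither with a skipping read in either file. The 18-nt version, in capitals above, had ψ of 0.49 (0.41 to 0.58) in siSNRPB2 and 0.17 (0.13 to 0.23) in siCtrl, on 137 and 47 inclusion reads. The 80-nt exon that contains it had ψ of 1.00 in siSNRPB2 and 1.00 in siCtrl, on 9350 and 10510 informative reads. The 49-nt coding exon (chr17:7574260-7574308, plus) had 0.36 (0.25 to 0.52) in siSNRPB2 and 0.81 (0.66 to 0.94) in siCtrl, on 33 and 110 inclusion reads. A 419-nt exon that contains it had 0.03 in siSNRPB2 and 0.03 in siCtrl, on 1122 and 1357 inclusion reads. The event of the 419-nt exon has a different downstream exon, so its ψ is not a second measure of the 49-nt exon. EIF4G2 encodes a scaffold protein used in cap-independent initiation, and its 103-nt exon (chr11:10804913-10805015, minus) had 0.78 in siSNRPB2 and 0.67 in siCtrl, on 1699 and 1695 inclusion reads.

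EIF4G3, a scaffold paralog of EIF4G1, showed the widest gap in read share among the 11 member exons that passed the read test. Its 114-nt exon had 26 inclusion and 12 skipping reads in siSNRPB2, against 1 and 34 in siCtrl. Inclusion reads were 68.4% of informative reads in siSNRPB2 and 2.86% in siCtrl (adjusted p = 5.04e-08, Fisher's exact test). ψ, which also weighs the 623 and 583 reads that fit both isoforms, was 0.08 in siSNRPB2 and 0.01 in siCtrl, so this exon was not called. EIF4A2 encodes the paralog of the EIF4A1 helicase. Its 111-nt exon, the one with a stop at base 8, and a 107-nt version annotated in a transcript subject to nonsense-mediated decay both had ψ of 0.33 in siSNRPB2 and 0.39 in siCtrl. The 111-nt exon had 1599 inclusion and 2187 skipping reads in siSNRPB2, against 2353 and 2387 in siCtrl, so the inclusion share was 42.2% and 49.6% (adjusted p = 6.97e-10, Fisher's exact test). Its Bayes factor in the authors' deposited table was 1e+12, but the ψ difference of -0.06 was below 0.1.

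Other eIF4 exons that moved little were among the best measured. The 60-nt exon of EIF4H, a cofactor of the helicase, had ψ of 0.02 in siSNRPB2 and 0.01 in siCtrl, on 69 inclusion and 1968 skipping reads in siSNRPB2 against 32 and 2211 in siCtrl (adjusted p = 3.50e-04, Fisher's exact test). The 169-nt exon of EIF4A1, whose event contains the small nucleolar RNA gene SNORD10, had 0.53 in siSNRPB2 and 0.55 in siCtrl on 20616 and 23465 inclusion reads. The 140-nt exon of EIF4A2, whose event contains SNORD2, had 0.59 in siSNRPB2 and 0.57 in siCtrl, and the 114-nt exon of EIF4G2, whose event contains SNORD97, had 0.65 and 0.62. Of the 38 member exons with ψ between 0.1 and 0.9 in both files and 200 or more informative reads per file, 10 were called, and none of the 10 with the most reads was. The 10 with the most reads include a 163-nt version of the EIF4A1 169-nt exon, at 0.54 in siSNRPB2 and 0.55 in siCtrl. The share called among all tested exons of this kind was not computed, so these counts have no background and are descriptions only.

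The genes EIF5A, EIF5A2 and EIF6 had no called exon on 6 tested, where 14.7% of all tested exons were called. EIF6, which keeps the large subunit from joining too early, had ψ of 0.78 (0.75 to 0.80) in siSNRPB2 and 0.85 (0.83 to 0.87) in siCtrl for a 176-nt coding exon. It had 162 skipping reads in siSNRPB2 and 146 in siCtrl, beside 2473 and 3279 inclusion reads (adjusted p = 8.65e-03, Fisher's exact test). A 169-nt version had 0.75 in siSNRPB2 and 0.83 in siCtrl. EIF5A carries the modified lysine hypusine and helps ribosomes through hard stretches of message. Its 95-nt untranslated exon had 33 inclusion reads in siSNRPB2 and 0 in siCtrl, beside 838 and 1119 skipping reads (adjusted p = 8.12e-11, Fisher's exact test), and ψ was 0.02 and 0.00.

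The synthetases of the multisynthetase complex had 2 lower and 2 higher calls on 38 tested exons in 8 genes, 10.5% against 14.7% of all tested exons. QARS charges transfer RNA with glutamine and showed the largest ψ differences in both directions. The 99-nt version of its 148-nt exon had ψ of 0.24 (0.16 to 0.33) in siSNRPB2 and 0.89 (0.74 to 0.99) in siCtrl, on 33 and 81 inclusion reads. The full 148-nt exon had 0.99 in siSNRPB2 and 1.00 in siCtrl, on 574 and 814 informative reads. The 60-nt version of its 67-nt exon had 0.85 (0.70 to 0.99) in siSNRPB2 and 0.26 (0.19 to 0.33) in siCtrl, on 136 and 51 inclusion reads, while the 67-nt exon had 0.99 in both files. Neither file held a skipping read for the 99-nt or the 60-nt version, so both calls rested on inclusion reads and reads that fit both isoforms. The 7 bases that separate these versions are the capitals at the start of the printed 67-nt exon.

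MARS charges methionine, and its 104-nt exon (chr12:57489455-57489558, plus) had ψ of 0.45 (0.38 to 0.52) in siSNRPB2 and 0.71 (0.62 to 0.83) in siCtrl, with no skipping read. The 135-nt version that contains it had ψ of 1.00 in siSNRPB2 and 1.00 in siCtrl, and a 292-nt version with a retained intron had 0.49 and 0.55. KARS charges lysine in both the cytosol and mitochondria, and its 94-nt exon (chr16:75636454-75636547, minus) had 0.72 (0.66 to 0.78) in siSNRPB2 and 0.57 (0.53 to 0.62) in siCtrl, on 746 and 647 inclusion reads. It had 2 skipping reads in siSNRPB2 and 0 in siCtrl, so its inclusion share did not rise, at 99.7% and 100%. Reads that fit both isoforms numbered 3251 in siSNRPB2 and 3577 in siCtrl. LARS charges leucine, and its 176-nt exon of transcripts without a coding sequence had 25 inclusion and 152 skipping reads in siSNRPB2, against 10 and 233 in siCtrl (adjusted p = 2.74e-03, Fisher's exact test), with ψ of 0.05 and 0.02.

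The other cytosolic synthetases had 1 higher call on 29 tested exons in 10 genes. That is 3.45% (exact 95% interval 0.0873 to 17.8), against 14.7% of all tested exons, a value inside that interval. NARS charges asparagine, and its 80-nt exon had ψ of 0.94 (0.84 to 1.00) in siSNRPB2 and 0.65 (0.56 to 0.75) in siCtrl, while the 83-nt version that contains it had 0.99 in both files. Neither file held a skipping read for the 80-nt exon. WARS charges tryptophan and has the most events of any member gene, 35. Its 102-nt coding exon had 16 inclusion reads in siSNRPB2 and 0 in siCtrl, beside 20 and 25 skipping reads (adjusted p = 5.82e-04, Fisher's exact test), and its 114-nt exon had 8 and 0, beside the same skipping reads (adjusted p = 0.0293, Fisher's exact test). ψ of the 102-nt exon was 0.04 in siSNRPB2 and 0.00 in siCtrl. TARS charges threonine, and its 191-nt coding exon had ψ of 0.40 in siSNRPB2 and 0.36 in siCtrl on 2166 and 2237 inclusion reads. Its skipping reads went the other way, 21 in siSNRPB2 and 0 in siCtrl (adjusted p = 7.22e-06, Fisher's exact test). The inclusion share was 99.0% in siSNRPB2 and 100% in siCtrl.

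The mitochondrial synthetases had 4 lower and 4 higher calls on 36 tested exons in 10 genes, 22.2% (exact 95% interval 10.1 to 39.2), against 14.7% of all tested exons, a value inside that interval. The interval treats exons as independent, although overlapping ones share reads. These genes were also read less deeply, with a median of 75.5 informative reads per exon in siSNRPB2 and 105 in siCtrl. HARS2 charges histidine in mitochondria. Its 99-nt coding exon had ψ of 0.66 (0.53 to 0.78) in siSNRPB2 and 0.98 (0.93 to 1.00) in siCtrl. There were 11 skipping reads in siSNRPB2 and 0 in siCtrl, beside 69 and 152 inclusion reads (adjusted p = 7.66e-05, Fisher's exact test). The 173-nt version with the stop codon had 0.41 in siSNRPB2 and 0.80 in siCtrl and shares those skipping reads, so the calls are not separate.

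TARS2, the mitochondrial threonine enzyme, had ψ of 0.49 (0.33 to 0.68) in siSNRPB2 and 0.96 (0.88 to 0.99) in siCtrl for a 65-nt coding exon (chr1:150491598-150491662, plus), on 40 and 93 inclusion reads. Neither file held a skipping read for it.

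CARS2, the mitochondrial cysteine enzyme, had 3 higher calls, all in exons outside its principal transcript and all with a stop codon in frame. The 118-nt exon printed above had ψ of 0.16 (0.11 to 0.22) in siSNRPB2 and 0.06 (0.03 to 0.09) in siCtrl, on 24 inclusion and 68 skipping reads in siSNRPB2 against 17 and 150 in siCtrl (adjusted p = 9.15e-03, Fisher's exact test). A 113-nt version with the same skipping reads and the same stop was not called. It had ψ of 0.08 in siSNRPB2 and 0.04 in siCtrl, on 11 and 13 inclusion reads (adjusted p = 0.615, Fisher's exact test). The 980-nt exon (chr13:110648318-110649297, minus) had 0.23 in siSNRPB2 and 0.11 in siCtrl (adjusted p = 0.0370, Fisher's exact test). The 464-nt exon (chr13:110650637-110651100, minus) had 0.67 (0.43 to 0.89) in siSNRPB2 and 0.23 (0.16 to 0.32) in siCtrl on 42 and 48 inclusion reads, with no skipping read. The 67-nt coding exon of the principal transcript that lies within it had 0.97 in both files, on 53 and 77 informative reads, and was not called. Among uncalled mitochondrial exons the 86-nt exon of WARS2, the tryptophan enzyme, differed most, 0.73 (0.54 to 0.90) in siSNRPB2 and 0.97 (0.93 to 1.00) in siCtrl, for which the authors' deposited table gives a Bayes factor of 6.82.

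Fisher's exact test on inclusion and skipping reads, 2-sided and Benjamini-Hochberg adjusted over all 18682 tested exons, found 11 member exons with an adjusted p below 0.05 and a share difference of at least 0.1, 4 lower and 7 higher. Over all tested exons 10.6% passed, 5.28% lower and 5.27% higher. Of the 11, 7 were also called in the same direction: EIF3D, both HARS2 exons, EIF4E2 135 nt, EIF3E 235 nt and the 118-nt and 980-nt exons of CARS2. The other 4 were EIF4G3 114 nt, LARS 176 nt and both WARS exons, whose ψ differed by less than 0.1. The test treats reads as independent. Over 4582 near-constitutive exons (ψ of 0.95 or higher and no skipping read in both files), the median difference between the files in inclusion reads against reads fitting both isoforms, as a chi-square, was 9.94 times that of independent reads. After dividing reads by that factor no member exon passed, with 1 exon, EIF4A2 111 nt, below an unadjusted p of 0.05. Over all 18682 tested exons, 4 passed after the same division and 211 were below an unadjusted p of 0.05 (Fisher's exact test). Passing was thus rare in any gene, and the result is not particular to the members.

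**Figure D3:**
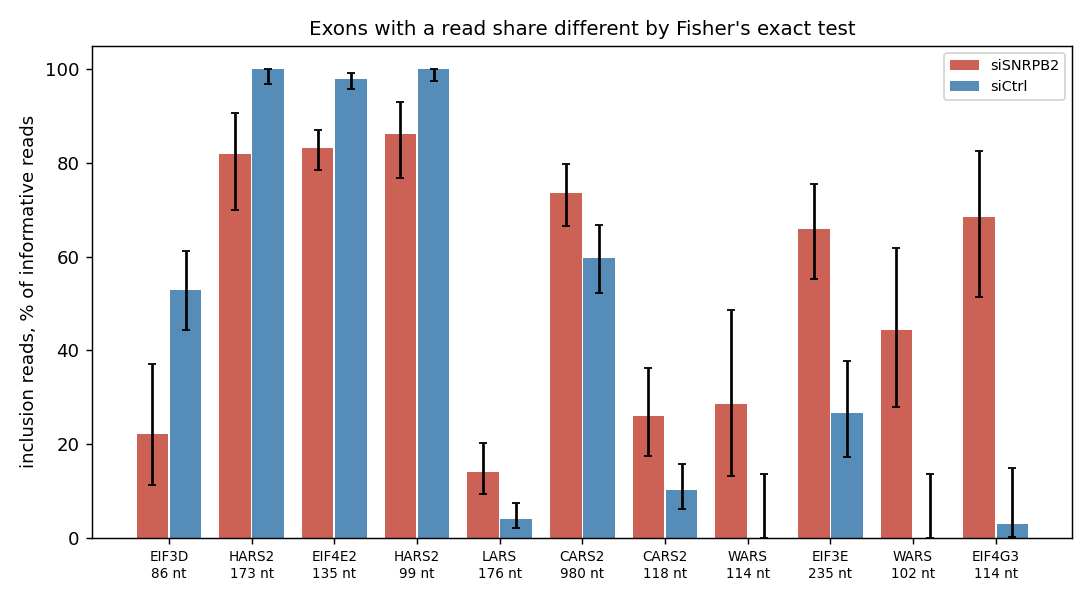
Inclusion reads as a percentage of informative reads for the 11 exons that passed Fisher's exact test, siSNRPB2 (red, left) and siCtrl (blue, right), with exact 95% intervals that cover counting error only. The EIF4G3 exon stands at 68.4% in siSNRPB2 and 2.86% in siCtrl, and the bars of both HARS2 exons reach 100% in siCtrl.

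The called exons were compared with all tested members in what the choice of members did not use. Their median length was 113 nt, against 110.5 nt for tested members and 121 nt for all tested exons. A length divisible by 3, which keeps the reading frame when the exon is skipped, was found in 10 of 28 called exons and 89 of 218 tested ones. Of the 11 exons called lower, 7 belonged to the principal transcript and 2 carried a stop codon in the frame of the event's upstream exon. Of the 17 called higher, 5 belonged to the principal transcript and 9 carried a stop codon. The KARS exon is in both counts, because its stop arises only when it is joined to the more distant upstream exon of its event. Among all tested members 120 of 218 belonged to the principal transcript and 56 carried a stop codon. These counts are descriptions, since overlapping exons share reads and the EIF2B5 versions supply 5 of the 17. Of the 28 called exons, 12 overlapped a deeper tested exon of the same gene, and for 7 of these the deeper exon was not called.

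Read abundance of the genes differed little. For each gene the reads that fit either isoform were taken from its deepest event, scaled to the file's sum over genes and expressed as a log2 ratio of siSNRPB2 over siCtrl with 1 read added. The 39 initiation genes had a median log2 ratio of -0.00, with 20 below 0 and 19 above. The 30 synthetase genes had a median of -0.04, with 16 below and 14 above. The median over all 10451 genes was 0.01. The 18 cytosolic synthetases lay between -0.34 and 0.26, and the 12 mitochondrial ones between -0.77 and 0.65 with a median of -0.18. These are bulk samples, in which fewer cells with a transcript and less RNA per cell cannot be told apart. With 1 value per group there is no test of these ratios.

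Among the 68 members with at least 100 reads on average, 4 had a log2 ratio of 0.5 or more and 5 of -0.5 or less, where 9.47% and 10.1% of all such genes did. Most of the deeply read members lay near 0. EIF4A1 had 4083 RPM in siSNRPB2 and 4006 in siCtrl, a log2 ratio of 0.03. EIF4G2 had 1003 RPM in siSNRPB2 and 1006 in siCtrl. EIF4A2 had 767.7 RPM in siSNRPB2 and 841.6 in siCtrl, a log2 ratio of -0.13. EIF4E, the cap-binding protein itself, had 340.8 RPM in siSNRPB2 and 277 RPM in siCtrl, a log2 ratio of 0.30, and EIF4B, a helicase cofactor, had 614.5 RPM in siSNRPB2 and 733.3 RPM in siCtrl, a log2 ratio of -0.25.

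The most deeply read eIF3 subunit was EIF3G, with 458.8 RPM in siSNRPB2 and 526.4 RPM in siCtrl, a log2 ratio of -0.20. EIF3H had 220.6 RPM in siSNRPB2 and 196 RPM in siCtrl, a log2 ratio of 0.17, and EIF3L, also an eIF3 subunit, had 202.1 and 193.3 RPM, a log2 ratio of 0.06. EIF2B1, the alpha subunit of eIF2B, had 473 reads in siSNRPB2 and 514 in siCtrl, a log2 ratio of 0.06. Of the start selection and ternary complex factors, the log2 ratio was -0.19 for EIF1, 0.19 for EIF2S2 and -0.16 for EIF5. It was 0.04 for EIF5A and -0.12 for EIF6.

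Among the synthetases, FARSA, the alpha subunit of the cytosolic phenylalanine enzyme, had 297.4 RPM in siSNRPB2 and 291.3 RPM in siCtrl, a log2 ratio of 0.03. CARS, the cytosolic cysteine enzyme, had 227.4 RPM in siSNRPB2 and 271.8 RPM in siCtrl, a log2 ratio of -0.26. The log2 ratio was 0.03 for TARS, 0.16 for LARS, 0.10 for KARS and -0.04 for MARS. FARS2, the mitochondrial phenylalanine enzyme, had 496 reads in siSNRPB2 and 597 in siCtrl, a log2 ratio of -0.09.

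The members with the highest ratios were TARS2, EIF2AK1, EIF2B3, EARS2 and EIF3E. TARS2 had 375 reads in siSNRPB2 and 270 in siCtrl, a log2 ratio of 0.65 (counting interval 0.42 to 0.88, or -0.08 to 1.44 with the noise factor above) that was 0.34 over all its 6 events. EIF2AK1 had 307 reads in siSNRPB2 and 222 in siCtrl, a log2 ratio of 0.64 that was 0.34 over both its events, and EIF2B3 had 669 and 486, also 0.64. EARS2, the mitochondrial glutamate enzyme, had 487 reads in siSNRPB2 and 377 in siCtrl, a log2 ratio of 0.54, but 0.09 when reads of all its 6 events were summed. EIF3E had 2159 reads in siSNRPB2 and 1963 in siCtrl, a log2 ratio of 0.31.

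The lowest ratios belonged to CARS2, EIF4E3, EIF2B5, EIF3D and LARS2. CARS2 had 328 reads in siSNRPB2 and 631 in siCtrl, a log2 ratio of -0.77 (counting interval -0.97 to -0.57, or -1.43 to -0.15 with the noise factor), but -0.34 over all its 10 events. EIF4E3, a small relative of eIF4E, had 75 reads in siSNRPB2 and 136 in siCtrl, a log2 ratio of -0.68 that was -1.30 over its 3 events. EIF2B5 had 700 reads in siSNRPB2 and 1191 in siCtrl, a log2 ratio of -0.59, and -0.75 over all 10 events. EIF3D had 409 reads in siSNRPB2 and 687 in siCtrl, a log2 ratio of -0.57, and LARS2, the mitochondrial leucine enzyme, had 287 and 464, a log2 ratio of -0.52. In EIF2B5 and EIF3D the event that gave these reads is also a called event, so the ratio and the call share reads. EIF4E1B, the only member under 100 reads, had 7 reads in siSNRPB2 and 35 in siCtrl. Of the 10 genes with these highest and lowest ratios, the interval widened by the noise factor includes 0 for 6 and leaves it out for 4, which are EIF2B3, EIF3E, CARS2 and EIF2B5. The 10 were picked by these same ratios, so this is a description and not a test. The factor was measured on reads within events, not on gene totals. Members outside the 10 also had widened intervals without 0, among them EIF4B (-0.37 to -0.14) and EIF4E (0.12 to 0.48). The sign was the same by the deepest event and by all events for 63 of the 69 genes.

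**Figure D4:**
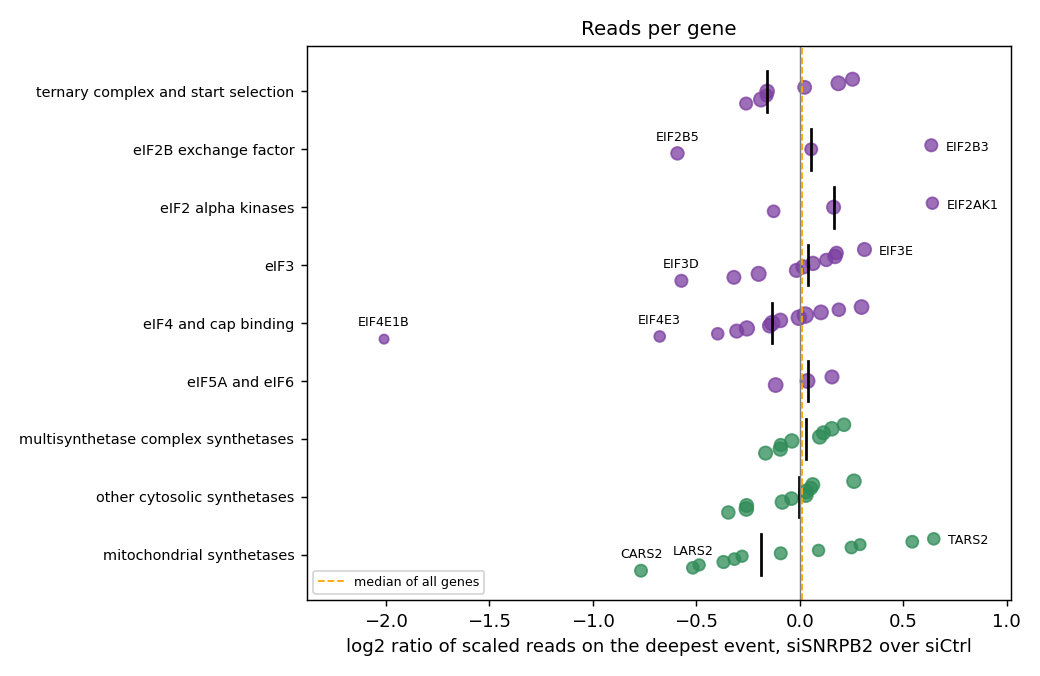
Log2 ratio of scaled reads on each gene's deepest event, siSNRPB2 over siCtrl, by group of genes, with point size growing with reads, black bars at group medians and the dashed line at the median of all genes. The cytosolic synthetases crowd around 0, between -0.34 and 0.26, while the mitochondrial synthetases spread between -0.77 and 0.65.

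Reads in an event that match neither of its isoforms, for example from introns, were compared with the reads that match. The log2 ratio of neither to fitting reads was higher in siSNRPB2 than in siCtrl for 43 of 69 member genes, with a median difference of 0.08, against 0.15 over all genes and 6357 of 10451 genes above 0. The 10 eIF3 genes had a median of 0.26, with 9 above 0. The 12 mitochondrial synthetases had a median of 0.44, with 9 above 0, and the 18 cytosolic synthetases had a median of -0.11, with 6 above 0. WARS2 had 474 neither reads in siSNRPB2 and 236 in siCtrl, a difference of 1.46. EIF2B5 had 501 in siSNRPB2 and 364 in siCtrl while its fitting reads were fewer, a difference of 1.23, and HARS2 had 245 and 170, a difference of 1.19. EARS2 stood at the other end with -0.86, on 191 neither reads in siSNRPB2 and 269 in siCtrl. Over all events, neither reads were 61.2% of the siSNRPB2 file and 59.1% of the siCtrl file. The part of unspliced RNA in these values was not tested.

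**Figure D5:**
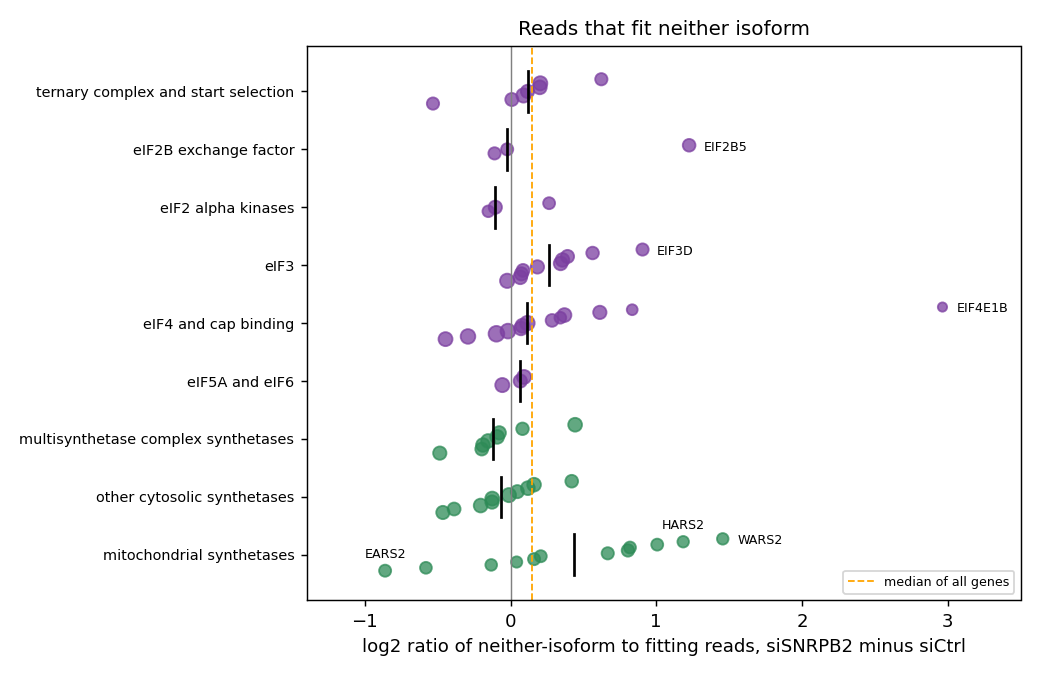
Difference, siSNRPB2 minus siCtrl, in the log2 ratio of neither-isoform to fitting reads on each gene's deepest event, by group of genes, with point size growing with fitting reads, black bars at group medians and the dashed line at the median of all genes. The mitochondrial synthetases reach 1.46 (WARS2) and -0.86 (EARS2), and EIF4E1B at 2.96 rests on 7 fitting reads in siSNRPB2.

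Genes that work beside the members were read the same way, and their calls stand against 14.7% of all tested exons. The scaffold and other synthetase genes had no call on 5 tested exons in 3 genes. AIMP2, a scaffold protein of the multisynthetase complex, had a log2 reads ratio of 0.16, EEF1E1, another of its non-enzyme members, 0.52, and TARSL2, a paralog of TARS, 0.55. The elongation and termination genes had 0 lower and 3 higher calls on 22 tested exons, all 3 in overlapping exons of EEF1D, a subunit of the elongation exchange factor. The genes of poly(A) binding and recycling had 5 lower calls and 1 higher call on 18. The 5 lower calls are 3 overlapping exons of LARP1, an RNA-binding protein, and 2 overlapping exons of PABPC4, and none of the 5 had a skipping read. PABPC4, a poly(A)-binding protein, had ψ of 0.51 in siSNRPB2 and 0.96 in siCtrl for an 88-nt exon. The genes of the stress response downstream of eIF2 had 0 lower and 3 higher calls on 28, with ψ of 0.43 in siSNRPB2 and 0.21 in siCtrl for the 198-nt exon of ASNS, asparagine synthetase. The genes of the mTOR arm, which sets cap-dependent translation, had 3 lower and 8 higher calls on 38. The 8 higher calls form 6 sets that do not overlap, since RPS6KB2, an S6 kinase, supplied 2 overlapping pairs, and the 3 lower ones had no skipping read. There PDCD4, an inhibitor of the eIF4A helicase, had 0.51 in siSNRPB2 and 0.93 in siCtrl for a 108-nt exon, and a 129-nt exon of TSC2, a brake on mTOR, had 0.28 in siSNRPB2 and 0.02 in siCtrl.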

How the data were processed

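Per the submitters' processing notes, reads were aligned with STAR 2.7 to hg38. The authors deposited MISO tables of skipped-exon events with ψ as a fraction with its interval, read counts by isoform class, the ψ difference as a score (siSNRPB2 minus siCtrl) and a Bayes factor as a ratio, at most 1e+12. The sources used here do not give the MISO version, the interval level or how libraries were combined. From these files, events were matched to GENCODE release 29 by exon boundary, and for each skipped exon the event with the most informative reads was kept. Exons with at least 20 informative reads per file were tested, and a call needed a ψ difference of 0.1 or more with a Bayes factor of 10 or more. Read counts were compared by Fisher's exact test (scipy 1.17.1), checked on simulated reads. Gene reads had 1 read added before log2 and at least 20 reads on average. Exact intervals are Clopper-Pearson at 95% and cover counting error only. Those for the share of exons called treat exons as independent, although overlapping exons share reads. Alternatives used other thresholds, read minimums, pseudocounts, scalings and events. The genes named are those with a called exon (1 such gene is not reported here), the 5 highest and 5 lowest read ratios over 100 reads, the deepest exons of intermediate ψ and the 3 most deeply read genes of each list of members, with a few uncalled exons of the largest difference added after their values were seen. The members and lists were chosen with earlier results of these data known.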

Additional observations from a re-analysis of the deposited data

How the results depend on the processing

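Against 11 exons called lower, 7 were called under a minimum of 50 informative reads per file, 5 when at least 1 skipping read was required and 7 when only the deepest exon of each overlapping set was counted, an alternative chosen after seeing the data. Against 17 called higher, 7 were called when at least 1 skipping read was required and 9 with only the deepest exon of each overlapping set. Against 11 exons passing the read test, 0 passed after reads were divided by the noise factor (Fisher's exact test, 1 exon at an unadjusted p under 0.05), 33 passed with no minimum share difference and 7 under the minimum of 50 informative reads. Over all 18682 tested exons, 4 passed after the division by the noise factor. The other 26 recomputed values, among them the Bayes factor, ψ difference, pseudocount and scaling alternatives, stayed within 1.5 times the count or within the spread over genes, although the medians of the read ratio lie so near 0 that their sign changed with reads summed over events, a minimum of 100 reads (initiation factors) or informative reads alone (synthetases). No paired analysis was possible because the files hold 1 value per group, and for the same reason no library could be left out. The mitochondrial synthetase exons had a median of 75.5 informative reads in siSNRPB2 and 105 in siCtrl.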

Other observations

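A few member exons changed ψ by at least 0.1 without being called. There were 12 of them among the 40 tested exons with such a difference, each with a Bayes factor under 10 in the authors' deposited table. The 43-nt exon of EIF4A1 had ψ of 0.32 in siSNRPB2 and 0.57 in siCtrl, on 25 and 65 inclusion reads, and overlaps the called 49-nt exon. In HARS2, a 535-nt exon of transcripts without a coding sequence had 0.42 in siSNRPB2 and 0.22 in siCtrl, on 71 and 30 inclusion reads. In MARS, a 117-nt coding exon had 0.77 in siSNRPB2 and 0.89 in siCtrl, on 562 and 643 inclusion reads. The 129-nt exon of EIF4G3 had 0.56 in siSNRPB2 and 0.46 in siCtrl, on 235 and 151 inclusion reads.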
